A study of Mus musculus with 8 samples.

Results

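Small leucine-rich proteins are secreted matrix proteins with a horseshoe-shaped domain of leucine-rich repeats, most of which bind collagen fibrils. In the cornea they set the width and spacing of the fibrils and several carry keratan sulfate chains, whereas in sclera and tendon the same family is known for its part in building thicker and stronger fibrils. The family members studied here are fibromodulin (Fmod), osteoglycin (Ogn), PRELP (Prelp), asporin (Aspn), osteomodulin (Omd), podocan (Podn), ECM2 (Ecm2) and chondroadherin (Chad), which are 8 of the 23420 named genes in the deposited table. They were chosen by symbol, and all 8 had reads. The values compare corneal buttons and limbal rims of wild-type, 8-week-old C57BL/6J mice, which were pooled by tissue before RNA extraction. The rim is the outer ring of the cornea, which borders the conjunctiva and sclera, and the button is the cornea inside it with its epithelium, stroma and endothelium.

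The question was how the matrix of the rim, where the limbal epithelial stem cells reside, differs from that of the cornea. The labels list 4 numbered samples for each tissue, L001 to L004, which is how sequencing lanes are named and does not mark them as separate animals. The table gives 1 mean normalized signal per gene, and these means are built from whole reads of 1 cornea and 1 limbus library. Both libraries' reads were derived from the table, and the totals on named genes were 26103772 in the cornea and 21182535 in the limbus. The table does not name the direction of its comparison, which was taken from the side the study gives for Kera, Krt19 and Dcn (keratocan, a simple keratin and decorin). Krt12, the keratin of the corneal epithelium, had 1137735 corneal and 233324 limbal reads. All ratios are limbus over cornea after division by the size factors, 1.03 for the cornea and 0.967 for the limbus, on the log2 scale. Their confidence intervals (CI), at the 95% level, were derived by the Clopper-Pearson method from the limbal share of a gene's reads. They cover counting error only and take each read as a separate draw. Amplified reads that carry no molecular identifier cannot be taken as separate molecules, so the intervals may be too narrow even for counting error. No difference has a replicate check in these data, as each tissue is 1 library, and replicates could not be tested. In whole tissue, fewer cells of a type and less RNA per cell cannot be told apart.

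All 8 genes had more normalized reads in the limbus, with log2 ratios from 1.12 for Ogn to 7.71 for Aspn, and for all 8 the difference was larger than counting error. All 8 were also at least 2-fold higher in the limbus. Of the 13931 genes whose mean reached 10 normalized reads, 18.0% were at least 2-fold higher in the limbus and 36.1% were higher there beyond counting error. In the cornea 8.88% were at least 2-fold higher and 40.5% beyond counting error, against 0 of the 8 genes. The median log2 ratio of all these genes was -0.04. The median of the 8 genes was 4.10, with Aspn taken at a floor of 3 reads in the cornea. All 8 passed the limit on the mean, Aspn and Chad through the limbus alone.

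**Figure D1:**
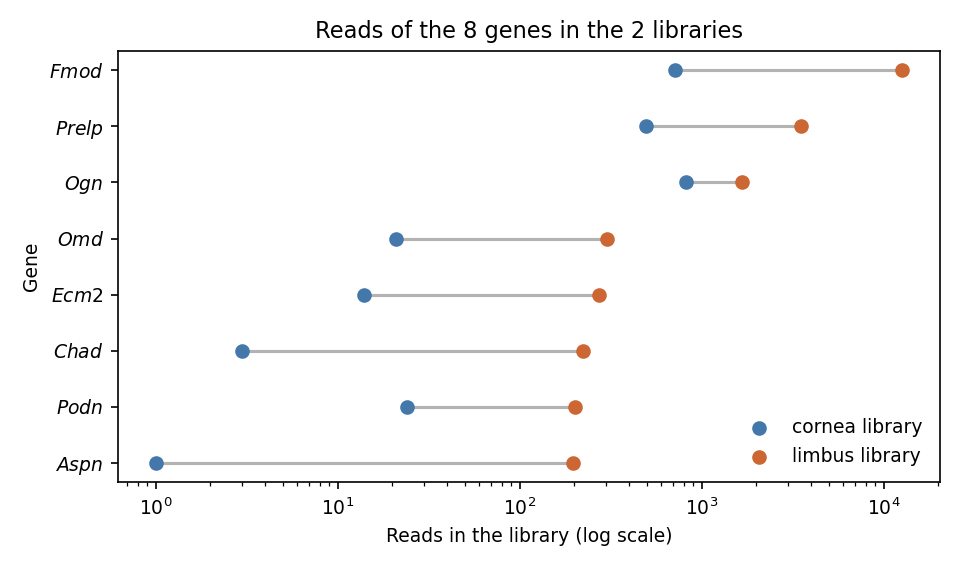
Reads of each gene (rows) in the cornea library (blue) and the limbus library (orange), on a log axis, 1 library per tissue. For all 8 genes the limbus point lies to the right, and Aspn and Chad had 1 and 3 reads in the cornea.

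All 8 genes were higher on the same side, and the stretch from 250 bases before to 50 after the transcript start of each was therefore read from RefSeq (GRCm38.p6), and all 8 matched by symbol, Podn with 2 starts. Those of Fmod (chr1:134037004-134037303, plus strand) and Prelp (chr1:133921352-133921651, minus strand) are shown as the genes with the most limbal reads, those of Aspn (chr13:49544193-49544492, plus strand) and Chad (chr11:94564797-94565096, plus strand) as the ones with the highest ratios, and that of Ogn (chr13:49607765-49608064, plus strand) as the one with the lowest. They are written 5′ to 3′, and capitals mark each match on either strand to one of 5 motifs, so that a match on the other strand appears as the reverse complement. In Ogn the capitals join a pair of overlapping matches to 1 motif, one on each strand. The first is the box spelled TATAAA that lies close to the start of many genes, and the second, spelled CCAAT, is bound by NF-Y. The third, spelled GGGCGG, is bound by Sp factors, the fourth, spelled TGANTCA, by AP-1 factors, and the last, spelled CAGATG, by factors with a basic helix-loop-helix domain.
Fmod: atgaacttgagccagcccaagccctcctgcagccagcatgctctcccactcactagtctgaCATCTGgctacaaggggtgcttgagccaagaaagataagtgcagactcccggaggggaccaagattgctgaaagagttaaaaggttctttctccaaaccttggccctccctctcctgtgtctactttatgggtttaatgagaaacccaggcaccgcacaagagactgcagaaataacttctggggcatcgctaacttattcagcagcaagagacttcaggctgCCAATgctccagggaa
Prelp: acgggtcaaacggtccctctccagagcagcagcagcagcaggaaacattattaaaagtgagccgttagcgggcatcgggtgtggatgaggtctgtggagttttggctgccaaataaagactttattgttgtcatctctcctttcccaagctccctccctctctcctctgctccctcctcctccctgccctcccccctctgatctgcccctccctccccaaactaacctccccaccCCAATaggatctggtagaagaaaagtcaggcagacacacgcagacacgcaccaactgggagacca
Aspn: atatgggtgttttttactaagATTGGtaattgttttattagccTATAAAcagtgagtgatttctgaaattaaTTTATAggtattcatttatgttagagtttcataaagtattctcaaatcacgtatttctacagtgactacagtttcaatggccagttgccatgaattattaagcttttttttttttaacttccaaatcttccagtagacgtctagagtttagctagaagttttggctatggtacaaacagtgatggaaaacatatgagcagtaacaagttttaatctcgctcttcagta
Chad: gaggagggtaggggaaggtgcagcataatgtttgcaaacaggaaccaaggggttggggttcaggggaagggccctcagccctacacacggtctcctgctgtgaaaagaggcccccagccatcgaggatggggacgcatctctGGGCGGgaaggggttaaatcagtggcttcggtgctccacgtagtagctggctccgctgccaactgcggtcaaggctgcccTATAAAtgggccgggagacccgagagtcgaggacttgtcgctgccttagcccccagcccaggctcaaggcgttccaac
Ogn: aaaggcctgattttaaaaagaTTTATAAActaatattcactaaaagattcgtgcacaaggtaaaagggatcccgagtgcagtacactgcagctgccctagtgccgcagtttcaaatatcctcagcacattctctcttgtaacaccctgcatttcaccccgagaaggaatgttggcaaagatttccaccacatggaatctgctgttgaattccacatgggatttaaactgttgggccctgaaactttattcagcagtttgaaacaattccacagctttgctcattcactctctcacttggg

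No motif was held by all 8 genes. TATAAA was found for Aspn, Chad and Ogn, against 14.2% of 27025 promoters of the same length, and in Chad it begins 28 bases before the start. Its matches lie further away in Aspn, at 207 and 178 bases before the start, and in Ogn, at 229 and 227. CCAAT, held by 37.9% of all promoters, was found for Fmod, Prelp and Aspn, and in Prelp it begins 15 bases before the start. In Aspn it lies 229 bases before the start, on the opposite strand, and in Fmod at base 35 after it. GGGCGG, held by 35.9%, was found for Podn, Ecm2 and Chad, and CAGATG, held by 17.2%, for Fmod and Podn. TGANTCA, held by 7.93%, was in none of the windows. The share of G and C ranged from 31.0% in Aspn to 77% in the first start of Podn, against a median of 52.7% over all promoters. Omd and the second start of Podn held none of the 5 motifs. These matches only describe the letters of the windows.

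Fibromodulin, a keratan sulfate protein that binds fibrillar collagens and guides their cross-linking, had the most reads of the 8 genes in the limbus. Fmod had 713 corneal and 12695 limbal reads, or 690 and 13123 after normalization. The limbus was thus 19.0-fold higher, for a log2 ratio of 4.25 (95% CI 4.14 to 4.36), and 2.07% of the 13931 genes had a ratio at least as high. PRELP, a basic protein that binds heparan sulfate and is thought to tie basement membranes to collagen, followed with 493 corneal and 3533 limbal reads. Its log2 ratio was 2.94 (95% CI 2.80 to 3.08), or 7.66-fold. Osteomodulin, a keratan sulfate protein first known from bone, had 21 and 302 reads, for a log2 ratio of 3.94 (95% CI 3.30 to 4.65). Fmod and Prelp thus rested on many reads in both libraries and Omd on few in the cornea.

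Osteoglycin, also called mimecan, carries keratan sulfate in the cornea. It had the most reads of the 8 genes in the cornea library, 821, against 1669 in the limbus. Its log2 ratio of 1.12 (95% CI 1.0 to 1.24), or 2.17-fold, was the lowest of the 8, and 16.9% of the 13931 genes had one at least as high. The interval of Ogn lay apart from those of the other 7 genes.

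Asporin binds collagen and TGF-β and carries a run of aspartate residues in place of a glycosaminoglycan chain. Aspn had 1 corneal and 196 limbal reads, so the log2 ratio of 7.71 has a wide interval, from 5.22 to 13.02. Chondroadherin is a protein of cartilage that binds collagen and integrins. Chad had 3 corneal and 224 limbal reads, for a log2 ratio of 6.32 (95% CI 4.75 to 8.61). These ratios are set by the small number of cornea reads, but even the lower ends of the intervals correspond to 37.2-fold for Aspn and 27.0-fold for Chad.

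ECM2 is a matrix protein related in its repeats to the proteoglycans of the family, and Ecm2 had 14 corneal and 274 limbal reads, for a log2 ratio of 4.39 (95% CI 3.62 to 5.28). Podocan, first known from the kidney glomerulus, belongs to a more distant branch of the family. Podn had 24 and 201 reads, for a log2 ratio of 3.16 (95% CI 2.55 to 3.84). In the order of the ratios, the intervals of neighbors overlapped from Aspn through Chad, Ecm2, Fmod, Omd and Podn to Prelp, so these neighbors were not set apart beyond counting error, while Prelp and Ogn were.

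**Figure D2:**
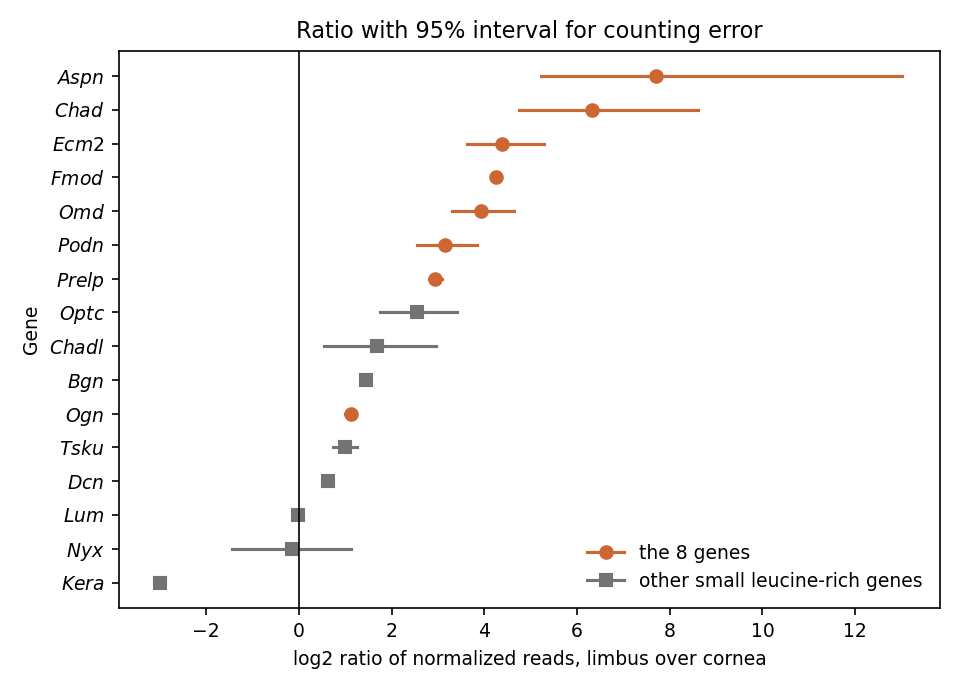
Log2 ratio of normalized reads, limbus over cornea (points), with the 95% interval for counting error (lines), for the 8 genes (orange circles) and the other small leucine-rich genes with reads in both libraries (grey squares). The 8 genes lie between 1.12 and 7.71 and Kera lies at -2.99.

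**Figure D3:**
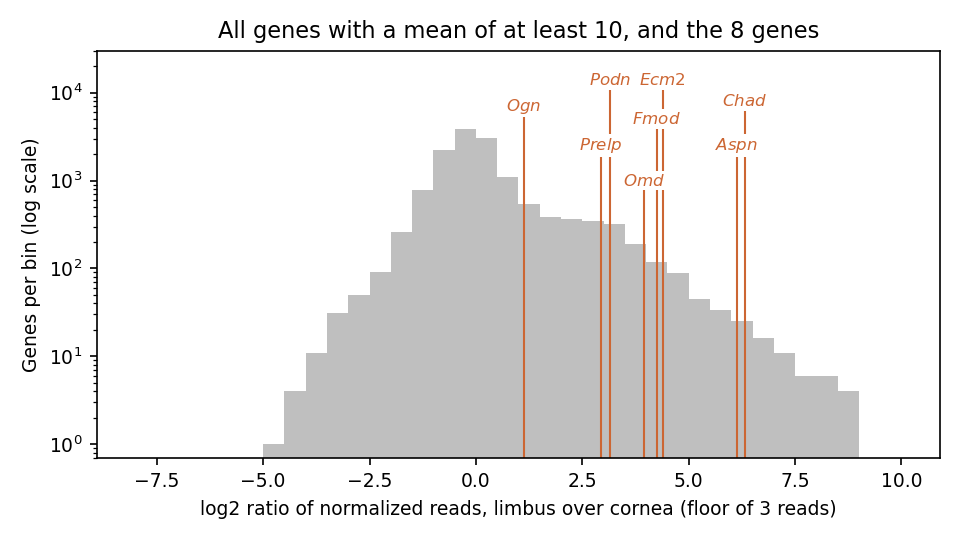
Number of genes per bin of the log2 ratio (grey, log axis) over the 13931 genes that reached a mean of 10, with reads under 3 set to 3, and the position of each of the 8 genes (orange lines). The 8 genes lie to the right of the median of -0.04, from 1.12 for Ogn to 6.32 for Chad, and Aspn stands at 6.13 because of the floor.

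Levels between genes were compared as normalized reads per kilobase of merged exons. In the cornea, Ogn led the 8 genes with 310 reads per kilobase (exact Poisson 95% interval 289 to 331), followed by Fmod with 209 (194 to 225) and Prelp with 132 (121 to 144). The other 5 genes lay at 9.03 or less per kilobase there, in the order Omd, Podn, Ecm2, Chad and Aspn, and the intervals of neighbors among these 5 overlapped. In the limbus the order of the first 3 genes changed to Fmod with 3970 reads per kilobase (3901 to 4039), Prelp with 1010 (977 to 1044) and Ogn with 672 (641 to 705). Ogn was thus 1.48 times the level of Fmod per kilobase in the cornea and 0.169 times in the limbus. This change of order does not depend on the scaling, because both genes were read in the same library. Omd and Chad followed at 139 and 138 per kilobase with overlapping intervals, then Aspn at 86.1, and Ecm2 and Podn at 49.9 and 48.7, again with overlapping intervals.

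Among the whole family of 18 genes, the 8 genes held 2090 of 58224 reads in the cornea and 19094 of 85272 in the limbus. These are 3.59% (95% CI 3.44 to 3.74, exact binomial) and 22.4% (95% CI 22.1 to 22.7) of the family's reads. Fmod alone went from 1.22% to 14.9% of the family's reads. Per kilobase, Fmod held place 6 of 18 in the cornea and place 2 in the limbus, after decorin. With the length of the longest transcript, biglycan came before Fmod in the limbus, which was then in place 3, so the order of Fmod and biglycan depends on the gene length used. Against lumican, the level of Fmod per kilobase was 0.0623 times in the cornea and 1.2 times in the limbus.

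**Figure D4:**
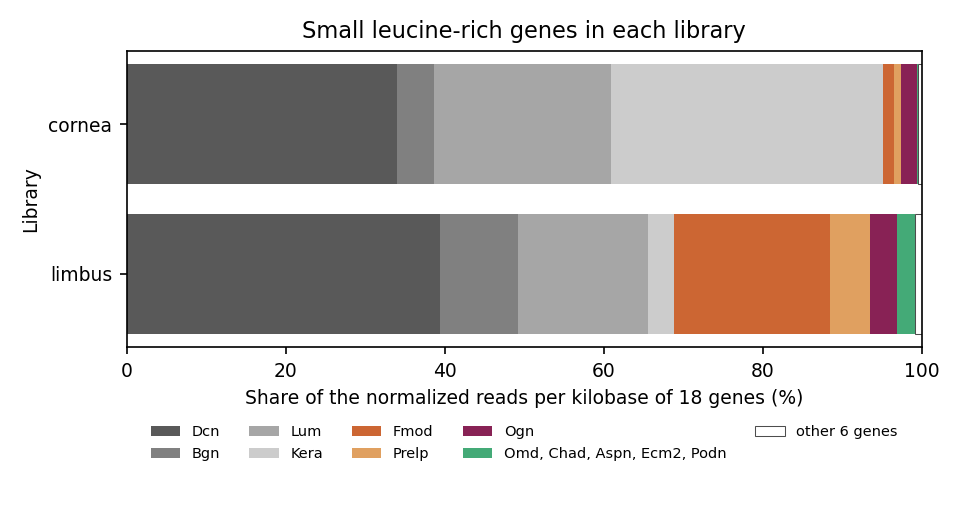
Share of each gene in the summed normalized reads per kilobase of 18 small leucine-rich genes, in percent, for the cornea and the limbus library. The 8 genes took 4.45% in the cornea and 30.3% in the limbus, of which Fmod took 1.39% and 19.7%, while Kera took 34.2% and 3.20%.

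The 10 other members of the family lay on both sides. Decorin (Dcn) had a log2 ratio of 0.64, biglycan (Bgn) 1.46, lumican (Lum) -0.01 and keratocan (Kera) -2.99. Of the 8 that reached a mean of 10, 5 were on the limbal and 1 on the corneal side beyond counting error, with a median log2 ratio of 0.81. Opticin (Optc), a protein of the vitreous, had 16 corneal and 87 limbal reads, for a log2 ratio of 2.54 (95% CI 1.76 to 3.41). Tsukushi (Tsku), a secreted regulator of signaling, had 194 and 360 reads, for a log2 ratio of 0.99 (95% CI 0.73 to 1.25), which overlaps that of Ogn. For Chadl, a relative of chondroadherin, 9 and 27 reads gave a log2 ratio of 1.68 (95% CI 0.55 to 2.95). Nyx, which encodes nyctalopin of the retina, had 13 and 11 reads and its interval ran from -1.45 to 1.13, so that these few reads could not show a difference. Epyc, the gene of epiphycan, a cartilage protein, had 0 corneal and 19 limbal reads, which would be 6.77-fold with the cornea at a floor of 3 reads, and its interval begins at 4.99-fold. Podnl1, the relative of podocan, had 0 and 1 reads and is given no fold.

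In GRCm38, 4 of the 8 genes lie side by side on chromosome 13, in the order Ecm2 (49504810 to 49532789), Aspn (49544443 to 49567565), Omd (49582462 to 49592822) and Ogn (49608046 to 49624501), all on the plus strand. Their log2 ratios along the chromosome were 4.39, 7.71, 3.94 and 1.12. All 4 lie inside Cenpp, a centromere protein gene on the opposite strand, which had 126 corneal and 89 limbal reads and a log2 ratio of -0.41. Only Aspn among these 4 shares exon bases with Cenpp, 7 bases in all. The nearest protein-coding genes with values outside this cluster were also not higher in the limbus, with log2 ratios of -0.13 (95% CI -0.40 to 0.13) for Ippk on one side and -0.61 (95% CI -0.83 to -0.40) for Nol8 on the other. Tes3-ps, which lies between Ippk and Ecm2, has no values here.

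A second cluster lies on chromosome 1, where Optc (133897199 to 133907999) and Prelp (133910304 to 133921414) are on the minus strand and Fmod (134037254 to 134048277) is on the plus strand. Optc and Prelp are 2305 bases apart and had log2 ratios of 2.54 and 2.94 with overlapping intervals. Btg2, a growth control gene next to Fmod, had 1205 corneal and 1301 limbal reads, for a log2 ratio of 0.21 (95% CI 0.09 to 0.32), while Atp2b4, a calcium pump gene on the other side of Optc, had 109 and 293, for a log2 ratio of 1.52 (95% CI 1.2 to 1.85). An antisense gene, Gm15851, shares 350 exon bases with Prelp. Chad (chromosome 11, 94565047 to 94569127) lies inside Acsf2, an acyl-CoA synthetase gene of the opposite strand with no shared exon bases, which had 50 and 649 reads, for a log2 ratio of 3.79 (95% CI 3.38 to 4.24). Podn (chromosome 4, 108014791 to 108096445) overlaps Scp2, a lipid transfer gene of the same strand, with no shared exon bases, and Scp2 had 4730 and 3823 reads. Libraries came from a stranded kit, but whether the counting used strand is not given in the sources used here. For Aspn and Prelp, reads of the overlapping gene thus cannot be told apart. Ecm2, Omd, Ogn, Chad and Podn share no exon bases with Cenpp, Acsf2 or Scp2. Whether reads from introns of these 3 genes in total RNA were counted for them was not tested.

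**Figure D5:**
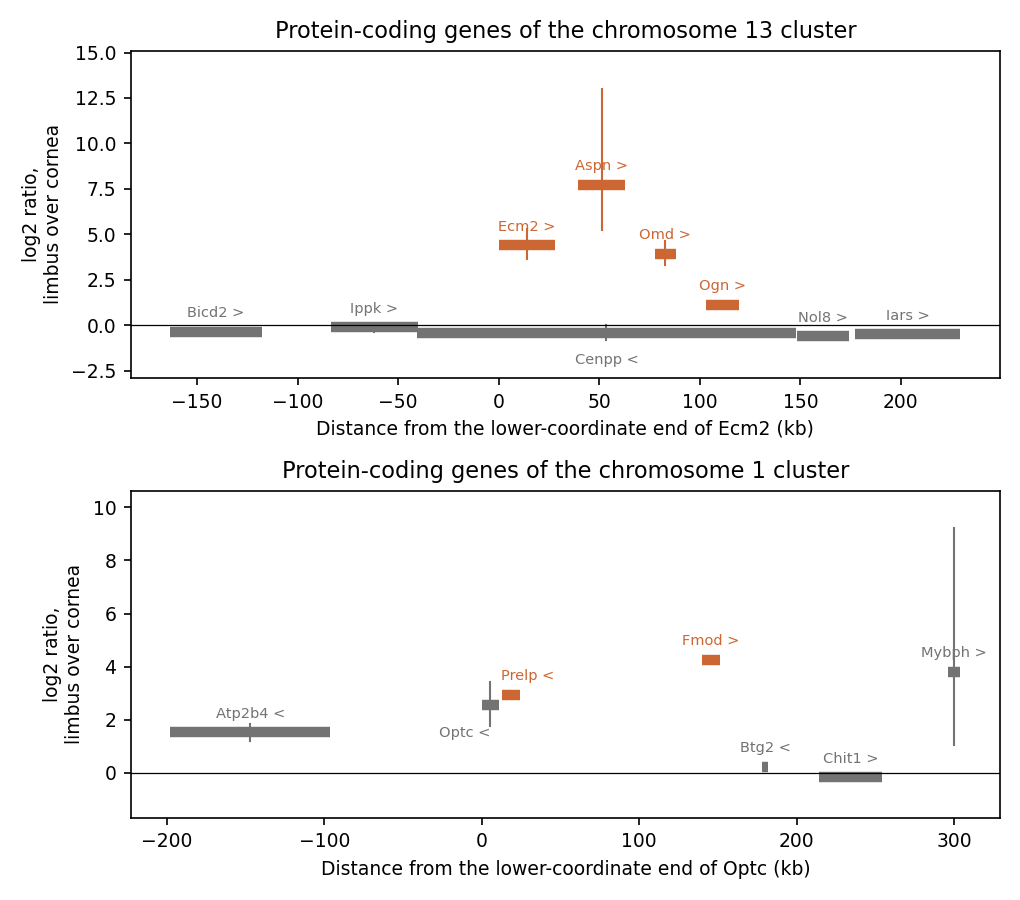
Log2 ratio, limbus over cornea (height at which each bar lies, with the 95% interval for counting error as a thin line), of protein-coding genes against the distance in kilobases along the chromosome 13 cluster (top) and the chromosome 1 cluster (bottom). Bars span each gene, arrows give its strand, and orange marks the genes studied. Cenpp, which spans Ecm2, Aspn, Omd and Ogn, lies at -0.41.

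The partners of these proteins were followed in lists chosen by function. Fibrillar collagens form the fibrils that the proteins bind. Of 9 such genes, 6 were on the limbal and 1 on the corneal side beyond counting error, with a median log2 ratio of 1.25. Col3a1 had 106 corneal and 3124 limbal reads, for a log2 ratio of 4.98 (95% CI 4.70 to 5.27), and that of Col5a3 was 2.14 (95% CI 1.80 to 2.50). At the other end, Col5a2 had a log2 ratio of -0.37 (95% CI -0.46 to -0.29), and Col11a1 one of -0.29 with an interval from -0.61 to 0.03. Col1a1, the main fibrillar collagen chain of the stroma, had a log2 ratio of 1.25 (95% CI 1.22 to 1.28), and its interval lay below that of Fmod.

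Of 20 genes of proteins on the fibril surface and of cross-linking enzymes, 16 were on the limbal and 3 on the corneal side beyond counting error, with a median log2 ratio of 1.15. Comp, a matrix protein of cartilage and tendon, had 4 and 147 reads, for a log2 ratio of 5.30 (95% CI 3.91 to 7.19), and Tnxb, which encodes tenascin X, 14 and 391 reads and 4.90 (95% CI 4.14 to 5.78). The lysine hydroxylase gene Plod1 had a log2 ratio of -0.42 (95% CI -0.57 to -0.27) and fibronectin (Fn1) one of -0.24 (95% CI -0.29 to -0.19). Lysyl oxidases make the cross-links that fibromodulin guides. Of their 5 genes, Lox had the lowest log2 ratio, 0.71 (95% CI 0.42 to 1.0), and those of Loxl1, Loxl2, Loxl3 and Loxl4 were 2.50, 1.2, 2.50 and 4.02.

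Of 15 genes for keratan sulfate chains, which Fmod, Omd and Ogn can carry, 11 of the 14 that reached a mean of 10 were on the limbal and 0 on the corneal side beyond counting error, and Chst4 was listed at 0. Their median log2 ratio was 0.76. Chst7, a sulfotransferase gene, had 9 and 38 reads, for a log2 ratio of 2.17 (95% CI 1.10 to 3.41), and the sialyltransferase gene St3gal1 299 and 1141 reads and 2.03 (95% CI 1.84 to 2.22). B3gnt2 and St3gal2, at -0.16 and -0.10, were not set apart from 0 beyond counting error. Fibromodulin and osteomodulin also carry sulfated tyrosines, and the tyrosine sulfotransferase genes Tpst1 and Tpst2 had log2 ratios of 0.89 (95% CI 0.69 to 1.10) and 0.69 (95% CI 0.47 to 0.91). Papss2, which makes the sulfate donor, was on the corneal side at -1.71 (95% CI -1.83 to -1.59), and so was Slc35b3, a transporter of that donor, at -0.33 (95% CI -0.53 to -0.14). Their relatives went another way, with Papss1 at -0.01 (95% CI -0.08 to 0.06) and Slc35b2 on the limbal side at 0.36 (95% CI 0.22 to 0.51). Of these 6 sulfation genes 3 were on the limbal and 2 on the corneal side beyond counting error, and the median was 0.18.

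TGF-β is bound by asporin, fibromodulin and decorin. Of 10 genes of the pathway, 7 were on the limbal and 3 on the corneal side beyond counting error, with a median log2 ratio of 0.95. Tgfb3 had 76 and 1212 reads, for a log2 ratio of 4.09 (95% CI 3.76 to 4.44), and Bmp2 had 12 and 56 reads and 2.32 (95% CI 1.40 to 3.35). For Tgfb3, the study also reports higher expression in the limbus by real-time PCR. Bmp4 had only 3 corneal reads against 116 limbal ones, for a log2 ratio of 5.37 (95% CI 3.79 to 7.67). The receptor gene Tgfbr1 was on the corneal side with 4975 and 920 reads, for a log2 ratio of -2.34 (95% CI -2.44 to -2.24), as was Smad3 at -0.54 (95% CI -0.64 to -0.44). Among the 50 genes of these lists and of the rest of the family with at least 50 reads in both libraries, the 8 genes themselves left out, those closest to Fmod in log2 ratio were Tgfb3, Col3a1 and Loxl1, at distances of 0.16, 0.73 and 1.75. This likeness rests on 1 ratio of 2 libraries. It left out the cell type lists, in which Krt19 at 4.53 and Cryaa, a lens gene, at 3.63 also lay near Fmod at 4.25. Nearer still were Acta2 at 4.29 and Tagln at 4.20, of smooth muscle and pericytes, and Mlana, of melanocytes, at 4.33. Each of these had fewer than 50 corneal reads. A ratio near that of Fmod was thus not particular to the partner lists.

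Genes of tissues that border the rim also differed between the libraries, and their part in the values of the 8 genes was not tested. A list of 9 genes of sclera and tendon fibroblasts had 16333 corneal and 33999 limbal reads in sum. In this list 6 were on the limbal and 1 on the corneal side beyond counting error, and none was at 0. Col1a1, which is also in the list of fibrillar collagens, gave 13776 and 30674 of these reads, and Comp is in the list of the fibril surface, as is Thbs4. The log2 ratios of the 9 genes were 5.30 for Comp, 3.73 for Cilp, 3.64 for Cilp2, 1.84 for Tnmd, 1.70 for Scx, 1.25 for Col1a1, 0.07 for Thbs4, -0.20 for Mkx and -0.45 for Pdgfra, and the intervals of Thbs4 (-0.02 to 0.17) and Mkx (-0.71 to 0.31) included 0. The 8 skeletal muscle genes had 36 and 10080 reads, and all 7 that reached a mean of 10 were on the limbal side beyond counting error. Desmin (Des) was at 0 in the cornea. The 6 genes of smooth muscle and pericytes had 358 and 2863 reads and the 6 of blood endothelium 242 and 2599, with 5 of 5 and 6 of 6 tested genes on the limbal side. For cartilage, the tissue in which Chad and Prelp are best known, 7 genes had 365 and 611 reads, most of them from Sox9. Matn1 and Hapln1 were at 0 in both libraries. Acan and Matn3 were at 0 in the cornea and had 3 and 5 reads in the limbus. The difference for Matn3 was not larger than counting error, and Acan is given no fold. The study reports Hapln1 as upregulated in the limbal region. The reads derived here do not show that difference. The 6 keratocyte genes had 33771 and 17440 reads, and 2 were on the limbal and 3 on the corneal side beyond counting error. Kera and Lum, which are also family members, gave 12119 and 8471 of the corneal and 1423 and 7850 of the limbal reads. On the limbal side were Ptgds at 3.49 and Cd34 at 2.64, and on the corneal side Kera at -2.99, Aldh1a1 at -2.16 and Angptl7 at -0.50.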

How the data were processed

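RNA of pooled limbal rims and corneal buttons was made into libraries with the QIAseq Stranded Total RNA kit and sequenced as paired-end reads. The study's methods name CLC Genomics Workbench for mapping, GRCm38 (mm10) as the genome, and the trimmed mean of M-values for normalization. The table's name and column names are those of DESeq output, a tool the study's methods do not name. The authors deposited a mean normalized signal per gene, with a log2 fold change, its standard error and p-values. The deposited log2 columns served only to place reads and are not reported. The p-values were not used.

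The table has 23420 named genes, 5978 of them at a mean of 0, and 17484 rows without a gene name, which stayed out. All 17442 means above 0 fell on whole reads of 2 libraries with size factors in the ratio of 109 to 102. Of these genes, 6143 allowed 1 pair of reads. For the others, the pair was taken whose standard error, from a negative binomial fit with a normal prior set to give the listed fold change, came closest to the listed one, and 93 genes with several close pairs were placed by their dispersion. The 2 symbols listed more than once were kept once. For Fmod, Ogn and Prelp the next pair missed 312, 83 and 2082 times as much, and for the other 5 genes no other pair could give the listed fold change. On simulated data, 17044 of 17044 genes were placed exactly, and 200 of 200 changed genes kept their direction. Whether the deposited columns came from such a fit was not tested this way. Reads are thus derived values.

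Members and lists were chosen with earlier results of these data known. The design assumed no test with 1 library per tissue. The genes named are the 8 members, the other 10 family members, the 2 highest and 2 lowest of each partner list with more than 3 reads in both libraries, and the first and the most abundant gene of each cell type list, apart from 2 of these lists, which are not reported here. The 3 genes nearest to Fmod in the lists, members left out, were also named. The lysyl oxidase genes, all genes of the sclera and tendon list, the marker genes at 0 and the genes around the members were chosen with their values known. So were Papss1, Slc35b2, Krt19, Chst1, Bmp4, Col9a1, Clu, Muc4, Muc5ac, Aqp3, Acta2, Tagln, Mlana and the keratocyte genes outside the family. Lengths, positions and overlaps are from GENCODE M21 (GRCm38) and promoters from RefSeq. Alternatives were scaling to total reads, a trimmed mean of M-values (30% and 5% trimmed), centring on the median, pseudocounts of 1 and 5, other limits on the mean, the next pair of reads and transcript length. Python 3.11.15, numpy 2.4.6, scipy 1.17.1, pandas 2.3.3 and matplotlib 3.10.9 were used.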

Additional observations from a re-analysis of the deposited data

How the results depend on the processing

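The count of 8 genes at least 2-fold higher in the limbus was 8 under each alternative run, and the median of the 8 genes kept its direction. Scaling to total reads shifted every log2 ratio by 0.21, which moved Fmod to 4.46, Ogn to 1.32 and Prelp to 3.14, and the list medians to 1.02 for the other family members, 1.35 for the fibril surface and cross-linking genes, 0.38 for the sulfation genes and 1.16 for the TGF-β genes. A trimmed mean of M-values shifted them by 0.02 and centring on the median by 0.04. A pseudocount of 5 lowered Aspn to 5.12. The next pair of reads with the same mean, which missed the listed standard error by far more, would give log2 ratios of 4.03 for Fmod, 5.46 for Ogn and 4.63 for Prelp, and no such pair was possible for the other 5 genes. With the length of the longest transcript, 6 of the 8 genes kept their place in the order of limbal levels, because Ecm2 and Podn changed places. No paired analysis was possible because the table holds no values for numbered samples, and for the same reason no sample could be left out. Depth limits Aspn, Chad, Ecm2, Omd and Podn, which had 24 reads or fewer in the cornea.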

Other observations

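The rim and the button also differed in genes of other eye tissues, given here as summed reads in the cornea and the limbus and the log2 ratio of single genes. Their part in the values of the 8 genes was not tested. Corneal epithelium genes had 2591568 and 998954 reads, with Krt12 at -2.19, and corneal endothelium genes 2619 and 6539, with Slc4a11 at 0.64 and Col8a2 at 1.81. Conjunctival genes had 143444 and 352417 reads, with the keratins Krt4 at 5.16, Krt19 at 4.53 and Krt13 at 1.86. In the same list Muc4 was at 0.62 and Aqp3 at 0.09, and Muc5ac had 1 read in each library. Lens genes had 3749 and 14968 reads, with Cryaa at 3.63 and Cryab at 1.0. Melanocyte and iris genes had 317 and 1604 reads, with Tyr at 2.35 and Dct at 2.05. Leukocyte genes had 6701 and 11580 reads, with Ptprc at 1.36 and Itgam at 0.65. Itgam gave 6003 and 8793 of these reads, and Ptprc 30 and 72. In the lists that stand beside the 8 genes, the log2 ratios were 1.70 for Scx, a tendon transcription factor, 3.34 for Col2a1, 0.89 for Sox9, 7.38 for Acta1, 8.71 for Myh4, 5.21 for Myh11, 1.96 for Pdgfrb and 7.21 for Pecam1.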
